A study of Mus musculus with 6 samples.

Results

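The signals of 10 genes of glucose uptake, glycolysis and the response to low oxygen were followed in mouse skin. The genes are the glucose transporters Slc2a1, Slc2a3 and Slc2a4, the glycolytic genes Hk2, Pfkfb3, Pgk1 and Ldha, the secreted factors Vegfa and Adm, and the transcription factor subunit Hif1a. A probe set, the group of short probes on the array that reads 1 transcript, was taken where the platform annotation gives it 1 of these symbols and no other. This gave 24 probe sets for the 10 genes, of 45037 probe sets and 18193 named genes on the arrays. The genes were selected on results of this same comparison, knock-in against wild-type signal, so those values are given as a description and no p-value is given for them.

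Skin RNA of 3 wild-type and 3 knock-in samples was hybridised to Affymetrix arrays, 1 array per sample. Both groups are on the C57BL/6 background. The knock-in has the genotype code KA and the source name KAB6 in the labels, which do not name the changed gene, an age, a sex, a body site or a treatment. Nothing in the labels ties the samples to different animals, so errors and p-values measure only the spread between these samples. Y-linked genes had signal on all 3 wild-type arrays and Xist on all 3 knock-in arrays. Eif2s3y, a Y-linked gene, went from 687 ± 42.6 to 5.04 ± 0.544 (SD, n = 3) between wild-type and knock-in, and Xist, the RNA of the inactive X chromosome, from 29.7 ± 2.44 to 3729.7 ± 282. For every result here, sex and genotype therefore cannot be told apart. Correlations between arrays (Pearson's r across genes tested, on the log2 scale) lay between 0.975 and 0.985 within groups and between 0.880 and 0.917 between them. The ratio of 3' to 5' actin signal, a sign of RNA integrity, lay between 1.21 and 1.28 in both groups. The 5' control for 18S ribosomal RNA lay between 1314 and 2286 in wild-type and between 166 and 766 in knock-in. Its middle control lay between 1009 and 1706 in wild-type and between 410 and 919 in knock-in. The 3' control overlapped, between 260 and 483 in wild-type and between 220 and 306 in knock-in. Keratinocyte markers, keratins among them, were bright in both groups. Summed signals of basal keratinocyte markers lay between 15775 and 16446 in wild-type and between 21945 and 26079 in knock-in. Those of suprabasal markers lay between 25522 and 30732 in wild-type and between 21077 and 30821 in knock-in.

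As background, cells take up glucose through carriers of the SLC2A (GLUT) family, trap it with hexokinases and break it down by glycolysis to pyruvate, which lactate dehydrogenase turns into lactate when mitochondria do not take it. HIF-1, a dimer of HIF-1 alpha and ARNT, raises transcription of many of these genes when oxygen is low, because the prolyl hydroxylases that mark HIF-1 alpha for destruction by VHL need oxygen. In skin, keratinocytes rely heavily on glycolysis, the epidermis is poorly oxygenated, and both wound repair and myeloid cells draw on the same genes.

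HIF dimers bind a core written ACGTG or GCGTG, and the stretches before the start of 4 members with higher signal in knock-in are shown. The genes were chosen in part for the response to low oxygen, so such cores are not independent of that choice. Shares of windows that hold a core are therefore given as a description. Each is the 250 bases before the RefSeq transcript start on the gene's own strand, 5' to 3', from the RefSeq table of build GRCm38.p6. Capitals mark each ACGTG or GCGTG and, for the other strand, each CACGT or CACGC. Slc2a1 is at chr4:119108495-119108744, Pgk1 at chrX:106186850-106187099, Ldha at chr7:46845554-46845803 and Adm at chr7:110627407-110627656, all on the plus strand.
Slc2a1: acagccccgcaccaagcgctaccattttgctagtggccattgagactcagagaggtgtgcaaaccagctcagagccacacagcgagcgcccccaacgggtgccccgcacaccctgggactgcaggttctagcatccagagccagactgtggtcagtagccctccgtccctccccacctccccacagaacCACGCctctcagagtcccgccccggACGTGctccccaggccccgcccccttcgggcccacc
Pgk1: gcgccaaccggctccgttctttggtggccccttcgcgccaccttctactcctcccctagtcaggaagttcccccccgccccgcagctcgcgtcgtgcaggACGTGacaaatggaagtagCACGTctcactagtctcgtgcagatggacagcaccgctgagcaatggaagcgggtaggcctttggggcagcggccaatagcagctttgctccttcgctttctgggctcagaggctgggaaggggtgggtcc
Ldha: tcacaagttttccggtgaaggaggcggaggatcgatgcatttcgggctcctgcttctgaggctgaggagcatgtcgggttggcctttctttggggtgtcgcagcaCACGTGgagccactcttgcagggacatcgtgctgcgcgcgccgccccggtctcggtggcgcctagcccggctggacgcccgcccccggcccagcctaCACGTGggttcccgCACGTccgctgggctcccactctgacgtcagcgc
Adm: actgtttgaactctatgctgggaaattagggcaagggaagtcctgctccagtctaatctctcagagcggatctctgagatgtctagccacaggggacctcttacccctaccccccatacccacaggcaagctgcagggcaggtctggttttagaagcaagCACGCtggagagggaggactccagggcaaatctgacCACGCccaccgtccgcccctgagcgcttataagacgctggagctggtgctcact
Slc2a1 holds 2 cores, the first of them 61 bases and the other 36 bases before the start. Pgk1 holds 2, at 150 and 131 bases, and Adm holds 2 on the other strand, at 90 and 54 bases. Ldha holds 5 by this count, because the palindrome CACGTG is counted once on each strand. The table has windows for 8 of the 10 genes, 11 windows in all, of which 10 (90.9%) hold at least 1 core. Of all 32851 windows of that length in the table, 12679 (38.6%) hold 1 or more. A Vegfa window has none, and its other window has 2. Hif1a has 3 and Hk2 has 2. The windows of Pfkfb3, whose signals overlapped between groups, have 1 and 3, and the other Ldha window has 1. The counts of Hif1a and Pfkfb3 also include a palindrome counted on each strand. These are matches of letters and no measurement of binding.

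Of the 24 probe sets, 20 were bright enough to be tested. Testing required a signal over the median of the same array, on 3 or more of the 6 arrays. Where signals are set against each other, wild-type 1, 2 and 3 come first and knock-in 1, 2 and 3 follow. Differences are knock-in minus wild-type in log2(signal + 16), which understates the change of dim probe sets, with standard errors from limma. Of the 20, 17 had a Benjamini-Hochberg adjusted p under 0.05 in the fit to all 23127 probe sets tested, all higher in knock-in, against 30.3% of all probe sets tested (13.0% higher). Among the 17, Slc2a3 1455898_x_at passed the filter through the knock-in arrays alone, where it had to be higher. The knock-in and wild-type values did not overlap for 18 of the 24, with knock-in above in each, against 32.7% of all 45037 probe sets (13.1% with knock-in above). With 1 probe set per gene, that with the highest mean, 8 of the 10 genes passed as higher, 0 passed as lower, and Slc2a4 and Pfkfb3 did not pass, against 31.1% of 11670 genes tested (14.8% higher). With wild-type array 3 left out the number was 7, as Ldha then missed the threshold. These counts describe genes chosen for this comparison and support nothing about them.

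**Figure D1:**
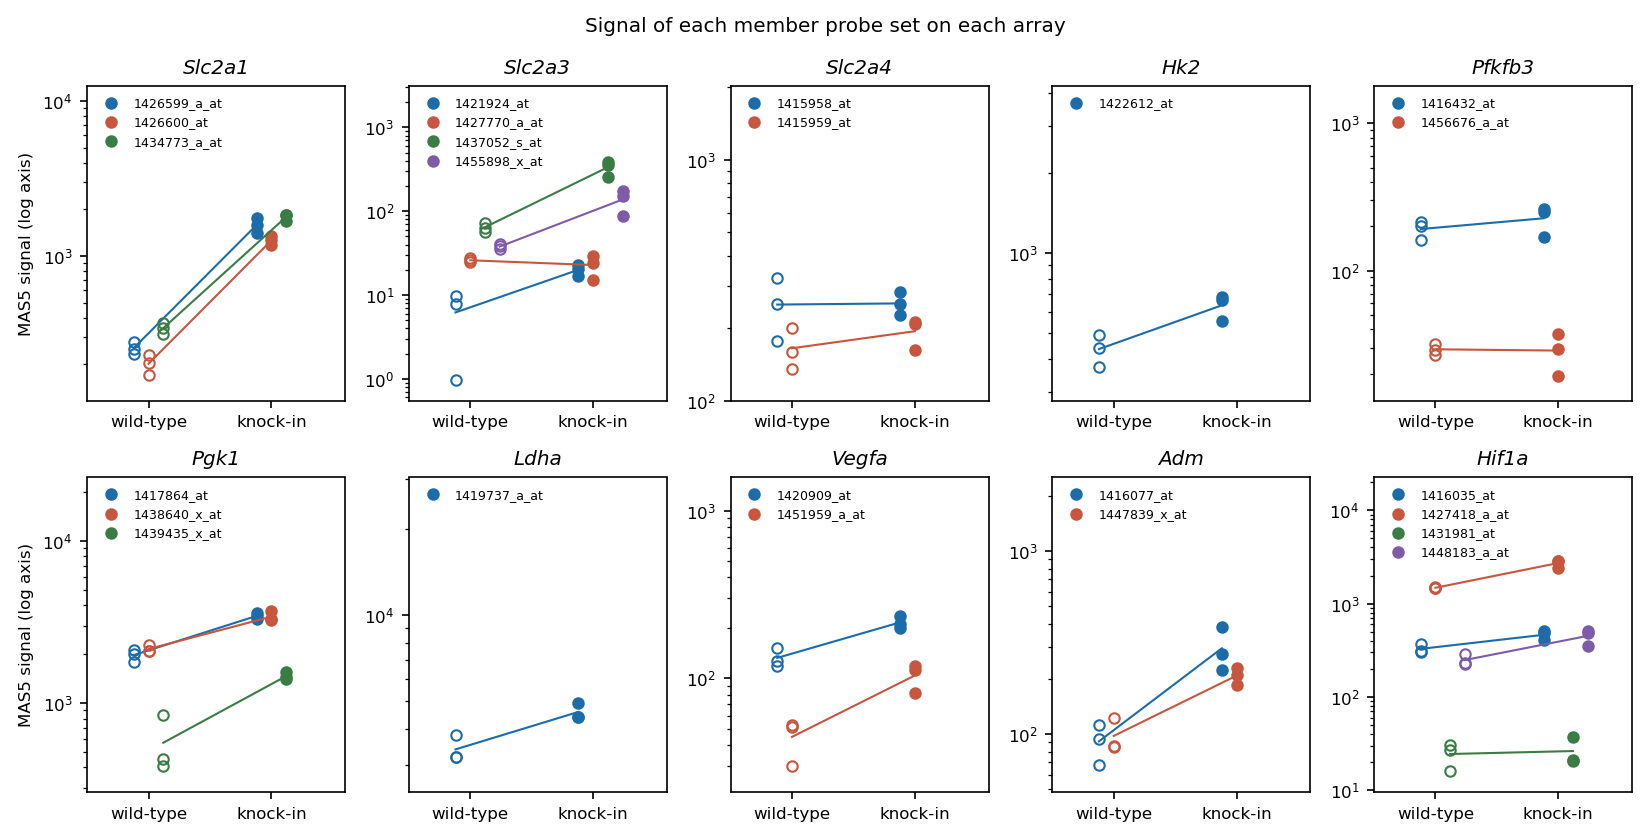
MAS5 signal (log axis) of each probe set of the 10 genes on each array, wild-type as open and knock-in as filled circles, with lines joining the group means (n = 3 each). All 3 probe sets of Slc2a1 lie far apart between groups, while those of Slc2a4 and Pfkfb3 overlap.

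Slc2a1 encodes GLUT1, the carrier that supplies basal glucose to keratinocytes and endothelium. Its probe set 1434773_a_at had signals of 312, 369 and 344 in wild-type 1, 2 and 3 and of 1839, 1844 and 1668 in knock-in 1, 2 and 3. The arrays of the groups lay far apart, with little spread inside either group. The ratio of group means was 5.22 and the log2 difference 2.33 ± 0.10. Probe set 1426599_a_at read 252, 278 and 234 in wild-type and 1585, 1756 and 1409 in knock-in (2.56 ± 0.11), and 1426600_at read 204, 229.8 and 169.8 against 1260.1, 1337 and 1177 (2.56 ± 0.12). The 3 probe sets therefore gave nearly the same difference, with no array standing apart in either group. Of the 11670 genes tested, 94 had a larger increase. In tissue RNA, a change in the number of cells of a type and a change of RNA per cell cannot be told apart. Summed signals of basal keratinocyte markers, given above, did not overlap between groups, and 3 of the 6 passed as higher. Those of 12 endothelial markers lay between 1446 and 1791 in wild-type and between 3365 and 3736 in knock-in, with 11 higher and 0 lower. Their part in the Slc2a1 difference was not tested.

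Slc2a3 encodes GLUT3, a high-affinity carrier of neurons and leukocytes. Probe set 1437052_s_at read 57.3, 73.1 and 63.1 in wild-type and 361, 259.6 and 386 in knock-in. Every knock-in array was well above every wild-type array. The log2 difference was 2.11 ± 0.16, or 1.62 with an offset of 64 in place of 16, and the mean over all probe sets of the gene gave 1.04. Probe set 1455898_x_at read 35.1, 40.1 and 38.4 against 152, 87.2 and 175 (1.47 ± 0.22, or 0.96 with an offset of 64). On both, knock-in 2 was the lowest knock-in array. Probe set 1455898_x_at was below the array median on every wild-type array and passed the filter through the knock-in arrays alone. The other probe sets were below the filter on every array. On 1421924_at the signals were 7.87, 0.956 and 9.77 against 22.7, 17.0 and 20.2, and on 1427770_a_at 24.6, 27.5 and 25.9 against 15.2, 24.1 and 29.1, where the groups overlapped. The brighter pair carry the suffixes _s_at and _x_at, given to probe sets that can also read related transcripts, and neither Slc2a3 probe set without these suffixes passed the filter. Neutrophil markers had summed signals between 620.5 and 895 in wild-type and between 15069.8 and 19080.0 in knock-in, with all 7 tested higher. Most of the knock-in sum (mean 16967) came from S100a8 and S100a9, with mean signals of 9374 and 6055. In wild-type their means were 478 and 101, so the sum mainly follows S100a8 and S100a9. Csf3r, Cxcr2, Mmp8 and Ngp, 4 of the 7, passed the filter through the knock-in arrays alone, where they had to be higher, and Ltf, below the filter, overlapped at 18.5 ± 14.8 in wild-type and 21.5 ± 10.7 in knock-in. Macrophage markers lay between 8287 and 12367 in wild-type and between 14053 and 21378 in knock-in, with 6 of 10 higher and 0 lower, and knock-in 2 had the lowest sum of the knock-in arrays in both lists. The part of these cells in the Slc2a3 difference was not tested.

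Slc2a4 encodes GLUT4, the carrier that insulin moves to the surface of muscle and fat cells. On 1415958_at the signals were 177, 323 and 253 in wild-type and 282, 252 and 227 in knock-in. The knock-in values all fell inside the wild-type range, and the log2 difference was 0.05 ± 0.19. On 1415959_at they were 136, 201 and 159.6 against 213, 208 and 163, again overlapping (0.22 ± 0.16). The first difference ranged from -0.17 with wild-type array 1 left out to 0.24 with wild-type array 2 left out, so its sign rested on single arrays. Skeletal muscle markers summed to 52428, 79501 and 59705 in wild-type and to 54667, 31805 and 31756 in knock-in. Of these 13 markers, 0 were higher and 7 lower. Adipocyte markers summed to 9188, 13457 and 13238 in wild-type and to 13085, 13914 and 15293 in knock-in, with 2 of 8 higher and 0 lower. In wild-type the arrays had the same order by muscle sum, by adipocyte sum and by Slc2a4 signal on both probe sets. In knock-in the order by Slc2a4 signal on both probe sets was the reverse of that by adipocyte sum. The muscle sums of knock-in 2 and 3 were nearly equal. The part of either tissue in the Slc2a4 values was not tested.

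Among 15 other listed genes of glucose and lactate transport 8 were bright enough to test. Of these, 2 rose and 1 fell (25.0% and 12.5%, against 14.8% higher and 16.3% lower of all genes tested), and the median log2 difference was 0.30 against -0.02 over all genes tested. Slc16a1, the lactate and pyruvate carrier MCT1, rose from signals of 745, 733 and 493 in wild-type to 1438, 1249 and 1445 in knock-in (1.07 ± 0.16, limma, Benjamini-Hochberg adjusted p = 0.00156), or by 0.63 as the mean over its probe sets. Slc16a7, the related high-affinity carrier MCT2, fell from 155, 106 and 138 to 44.6, 80.2 and 45.1 (-1.06 ± 0.21, adjusted p = 0.00614). Slc16a3, the lactate exporter MCT4 and a HIF target, was below the filter, with 5.21, 17.0 and 14.4 in wild-type and 50.8, 36.1 and 55.9 in knock-in. The sodium-coupled glucose carrier Slc5a1 had a difference of 0.65 ± 0.19 (adjusted p = 0.0317), or 0.43 with an offset of 64 and 0.35 as the mean over its probe sets. It did not pass with wild-type array 2 or 3 left out or without any 1 of the knock-in arrays, with p from 0.0123 to 0.176 across 17 alternatives, so the count of genes that rose was then 1. Bsg, a chaperone of lactate transporters, had a difference of 0.31 ± 0.10 (adjusted p = 0.0504), which passed with wild-type array 1 left out (adjusted p = 0.0158, with p from 0.0158 to 0.165 across 18 alternatives). In that setting 3 genes of the list rose and 2 fell.

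Of 17 genes of insulin signalling and the Slc2a4 storage vesicle, 3 rose and 4 fell (17.6% and 23.5%), with a median of 0.04. These shares are near the 14.8% and 16.3% of all genes tested. The vesicle protein Vamp2 fell from 183, 232 and 242 to 122, 75.8 and 95.5 (-1.06 ± 0.17, or -0.69 as the mean over its probe sets, adjusted p = 0.00243), and the sorting receptor Sort1 fell by 0.48 ± 0.10 on the log2 scale (adjusted p = 0.00666). Mef2c, a transcription factor of muscle and endothelium, had a difference of -1.03 ± 0.16 (adjusted p = 0.00223). The insulin receptor substrate Irs1 had one of -0.48 ± 0.12 (adjusted p = 0.0152), which missed the threshold with knock-in array 1 left out (adjusted p = 0.0552, with p from 0.0124 to 0.0552 across 18 alternatives). The 3 genes that rose, Insr, Irs2 and Txnip, named after their values were seen, had differences of 0.33, 0.51 and 0.53. The number that rose was 0 with wild-type array 3 or knock-in array 1 left out and 1 with wild-type array 1 or knock-in array 3 left out. Tbc1d4, a regulator of vesicle release, was among the genes that did not pass (0.12).

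Hk2 encodes hexokinase 2, the inducible form that traps glucose as glucose-6-phosphate in muscle, fat and proliferating cells. Its probe set 1422612_at read 374, 495 and 441 in wild-type and 669.7, 686 and 555 in knock-in. The groups did not overlap, and the gap between the highest wild-type and lowest knock-in array was smaller than the spread within either group. The log2 difference was 0.53 ± 0.13, and it ranged from 0.43 to 0.63 with single arrays left out. The other hexokinases Hk1 and Hk3 had differences of 0.23 ± 0.10 and 0.60 ± 0.21 that did not pass (adjusted p = 0.101 and 0.0593). Hk3, the form of myeloid cells, passed with wild-type array 2 left out (adjusted p = 0.0412, with p from 0.0355 to 0.458 across 17 alternatives), and Hk1 passed as the mean over its probe sets (0.37, adjusted p = 0.0245, with p from 0.0245 to 0.285 across 18 alternatives).

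Pfkfb3 makes fructose-2,6-bisphosphate, the activator of phosphofructokinase that speeds glycolysis. On 1416432_at it read 161, 213 and 201 in wild-type and 249.7, 169 and 262 in knock-in. Knock-in 2 lay among the wild-type arrays and the others above them, and the log2 difference was 0.21 ± 0.17. With knock-in array 2 left out it was 0.40. The dim probe set 1456676_a_at read 29.1, 26.9 and 31.9 against 37.2, 19.4 and 29.6 and overlapped fully. Of 16 tested genes that control fructose bisphosphate and the entry of pyruvate into mitochondria, 2 rose, 1 fell and 13 did not pass, with a median of -0.01. The shares of 12.5% higher and 6.25% lower are below those of all genes tested, 14.8% and 16.3%. Pdk4, a kinase that blocks pyruvate dehydrogenase, rose from 377, 619 and 462 to 3896, 2419 and 2287, a log2 difference of 2.51 ± 0.23 (adjusted p = 1.67e-04). Pdk1, the kinase known as a HIF target, read 474, 394 and 422 in wild-type and 418, 455 and 449 in knock-in, with a difference of 0.04 ± 0.10 (adjusted p = 0.805). Pfkfb2, a relative of Pfkfb3, fell from 131, 142 and 137 to 91.9, 83.2 and 69.4 (-0.66 ± 0.13, adjusted p = 0.00539), although its 3 tested probe sets ranged from -0.66 to -0.03, and the mean over its probe sets was -0.33. Dlat, a subunit of pyruvate dehydrogenase, rose by 0.46 ± 0.09 (adjusted p = 0.00528), but its mean over probe sets did not pass (0.32, adjusted p = 0.0672, the highest over 18 alternatives, with 0.00296 the lowest). Pdhx had a difference of -0.27 that did not pass. With wild-type array 2 left out, the list had 2 genes that fell.

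Pgk1 encodes phosphoglycerate kinase 1, a step that yields ATP, and lies on the X chromosome. Probe set 1438640_x_at read 2265, 2099 and 2083 in wild-type and 3667, 3253 and 3286 in knock-in, and 1417864_at read 2005, 2117 and 1797 against 3605, 3289 and 3428. Both separated the groups, by 0.66 ± 0.09 and 0.80 ± 0.09 on the log2 scale. The third, 1439435_x_at, read 407, 843 and 454 against 1399, 1444 and 1545 (1.41 ± 0.23), with wild-type 2 well above the other wild-type arrays. Pgk1 has near-identical copies in the genome, which probe sets with the suffix _x_at may also read. Ldha encodes the A subunit of lactate dehydrogenase, which turns pyruvate into lactate. It read 3194, 3804 and 3198 in wild-type and 4949, 4412 and 4424 in knock-in (0.44 ± 0.10, a ratio of 1.35). Wild-type 2 was the highest wild-type array and still below every knock-in array. Copies of Ldha elsewhere in the genome may add to its signal.

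**Figure D2:**
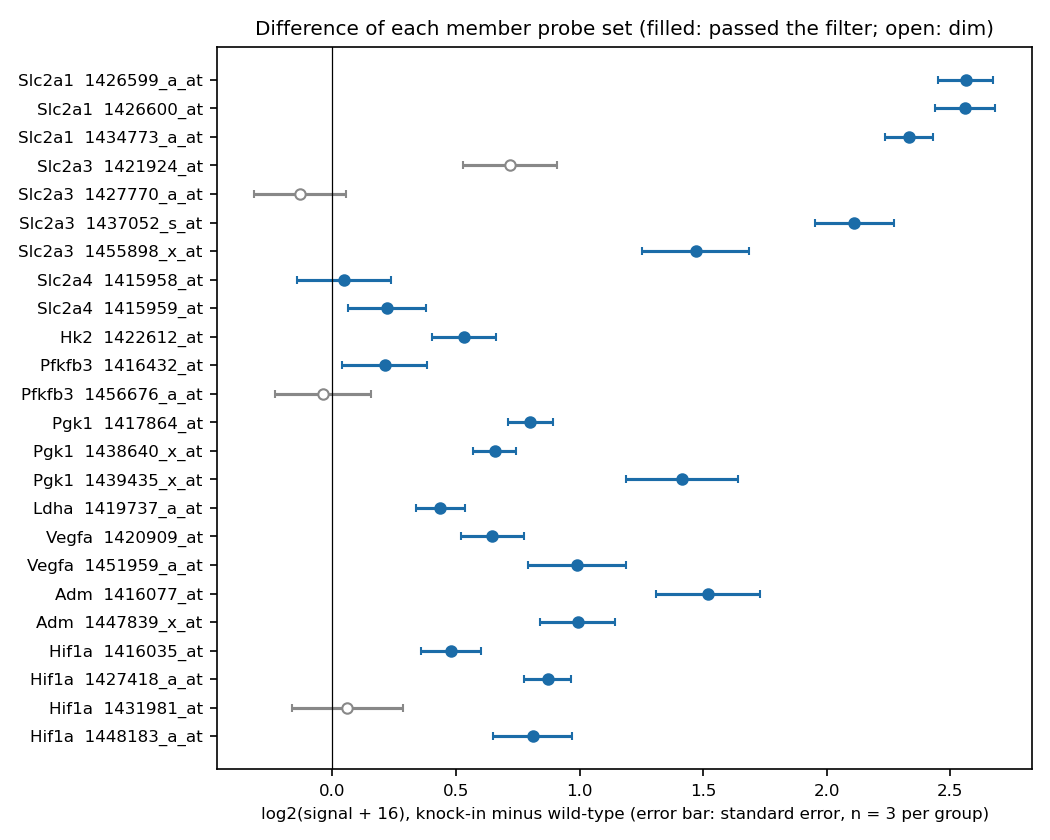
Log2 difference, knock-in minus wild-type, of each of the 24 probe sets with its standard error (3 arrays per group); filled points passed the filter on dim probe sets and open points did not. The points run from -0.13 (Slc2a3 1427770_a_at) to 2.56 (Slc2a1 1426599_a_at).

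The other enzymes of glycolysis moved in both directions. Of 25 listed, 19 had a probe set annotated to that gene alone, and 14 were bright enough to test. Gapdh, Eno1 and Gpi1 were among those without such a probe set. Array controls, left out of the fit, also read Gapdh. Its 3' control read 4284, 5108 and 4269 in wild-type and 6382, 5323 and 5239 in knock-in, without overlap (a ratio of 1.24). The 5' and middle controls overlapped (ratios of 1.19 and 1.20). Of the 14, 4 rose, 4 fell and 6 did not pass (28.6% higher and 28.6% lower, against 14.8% and 16.3% of all genes tested), with a median of 0.04. Pkm, pyruvate kinase of most tissues, rose from 1272, 1323 and 937 to 2065, 2088 and 2172 (0.85 ± 0.13, adjusted p = 0.00197). Phosphoglycerate mutase Pgam1 rose by 0.72 ± 0.13 (adjusted p = 0.00368) and the platelet-type phosphofructokinase Pfkp by 0.52 ± 0.08 (adjusted p = 0.00213, with probe sets from -0.13 to 0.57 and a mean over them of 0.32). Pfkl, the liver type, was the other gene that rose (0.60 ± 0.11). In contrast, Pfkm, the muscle type, fell from 829, 1368 and 1051 to 619, 447 and 386 (-1.13 ± 0.21, adjusted p = 0.00438). The aldolase Aldoc had a difference of -1.05 ± 0.15 (adjusted p = 0.0013), or -0.69 as the mean over its probe sets. The muscle forms Pgam2 and Eno3 also fell (-1.50 and -1.08); these and Pfkl were named after their values were seen. On the knock-in arrays Pfkm was highest on knock-in 1, as were the summed muscle markers given above. Those sums were nearly equal on knock-in 2 and 3, where Pfkm read 447 and 386. The part of muscle in the lower signals of Pfkm, Pgam2 and Eno3 was not tested.

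**Figure D3:**
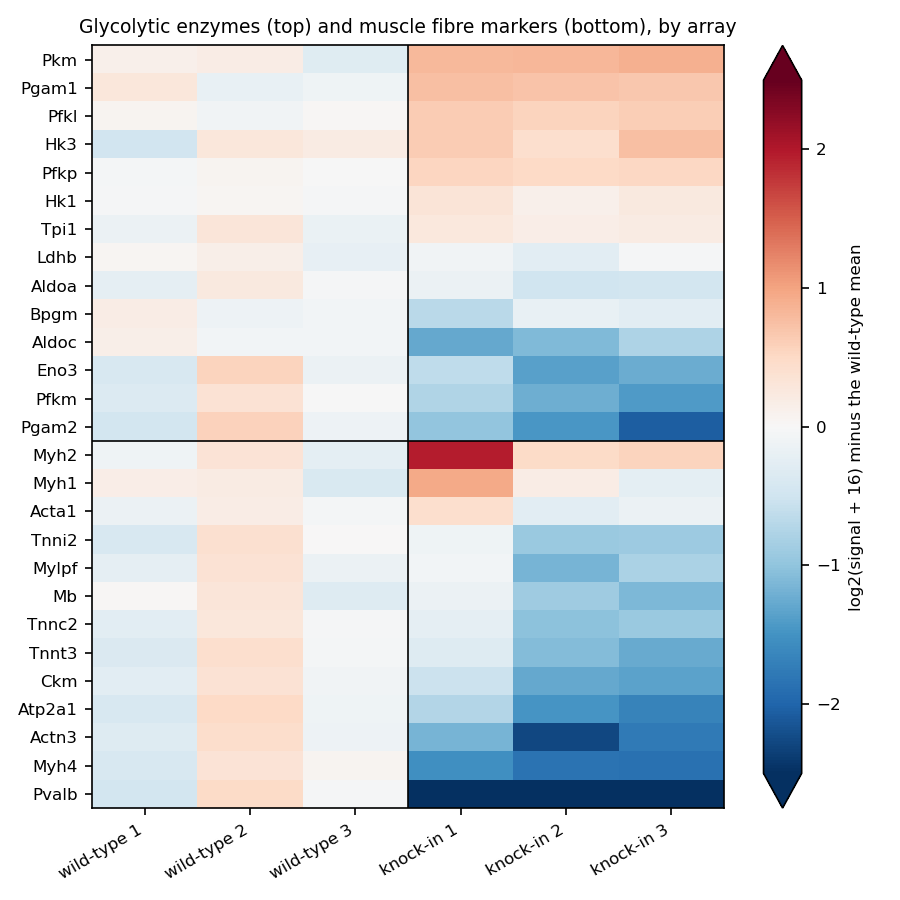
Log2(signal + 16) of the 14 tested glycolytic enzymes (top) and 13 skeletal muscle markers (bottom) on each array, minus the gene's wild-type mean; colours end at 2.5 in either direction, which the Pvalb values pass. Pkm, Pgam1, Pfkl and Pfkp are higher on all 3 knock-in arrays, and Pfkm, Pgam2 and Eno3 are lower together with most muscle markers, though Acta1, Myh1 and Myh2 are not.

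Vegfa encodes the main growth factor of blood vessel endothelium, which keratinocytes release in wounds. Probe set 1420909_at read 118, 152 and 127 in wild-type and 199, 237 and 211 in knock-in (0.65 ± 0.13). Probe set 1451959_a_at read 52.7, 51.4 and 30.1 against 119, 112 and 81.4 (0.99 ± 0.20, or 0.63 with an offset of 64). Neither overlapped between groups, and on the latter wild-type 3 and knock-in 3 were the lowest arrays of their groups. Of 13 other ligands and receptors of the VEGF and angiopoietin families, 7 rose, 0 fell and 6 did not pass (53.8% higher, against 14.8% of all genes tested), with a median of 0.56. Of the 7, Pgf and Tie1, named after their values were seen, were below the array median on every wild-type array. Both passed the filter through the knock-in arrays alone, where they had to be higher. With single arrays left out, 5 to 6 genes of the list rose. Vegfd, a ligand for lymphatic vessels, rose from 112, 137 and 116 to 323, 343 and 415 (1.45 ± 0.13, adjusted p = 1.33e-04). The receptors Flt1 and Flt4 rose by 0.94 ± 0.15 and 0.65 ± 0.12 (adjusted p = 0.00204 and 0.00469), with all 4 probe sets of Flt1 higher, and Angpt2, a ligand of remodelling vessels, by 0.71 ± 0.13 (adjusted p = 0.00452, or 0.46 with an offset of 64). Kdr, the main signalling receptor for Vegfa, read 59.0, 94.9 and 69.5 against 95.9, 65.6 and 98.3 and overlapped (0.18 ± 0.19, adjusted p = 0.504). The endothelial markers that stood higher in knock-in, described with Slc2a1, are expressed by the same cells as these receptors, and their part was not tested.

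Adm encodes adrenomedullin, a vessel-dilating peptide that skin also uses as an antimicrobial. Probe set 1416077_at read 68.0, 93.8 and 112 in wild-type and 224, 273 and 385 in knock-in. All knock-in arrays lay above all wild-type arrays, and the spread within knock-in was wide. The log2 difference was 1.52 ± 0.21, and 230 of the genes tested had a larger increase. Probe set 1447839_x_at read 85.7, 85.0 and 122 against 186, 229 and 210.0 (0.99 ± 0.15). Of 7 tested genes of its receptors and related peptides, 3 rose, 2 fell and 2 did not pass (42.9% and 28.6%, against 14.8% and 16.3% of all genes tested), with a median of 0.37. Adrenomedullin acts through the receptor Calcrl joined to Ramp2 or Ramp3. Ramp2 rose from 249, 312 and 218 to 425, 487 and 460.0 (0.79 ± 0.13, adjusted p = 0.00291), and Ramp3 rose by 1.20 ± 0.21 (adjusted p = 0.00367), or 0.71 with an offset of 64. Ramp3 read 22.0, 42.7 and 29.1 against 72.3, 87.7 and 117, and it too passed the filter through the knock-in arrays alone. Ramp1, which turns the same receptor towards the peptide CGRP, fell from 327, 466 and 340.1 to 138, 179 and 159 (-1.16 ± 0.15, adjusted p = 9.55e-04), with -0.61 as the mean over its probe sets. Mme, a peptidase that degrades such peptides, had a difference of -1.17 ± 0.14 (adjusted p = 6.35e-04). Calcrl had a difference of 0.37 ± 0.17 (adjusted p = 0.136), which passed with wild-type array 2 left out (0.55, adjusted p = 0.0273, with p from 0.0273 to 0.624 across 18 alternatives). Ackr3, a scavenging receptor and the third gene that rose, was named after its value was seen (0.93). Endothelial markers, described with Slc2a1, also stood higher in knock-in, and their part in the Ramp2 and Ramp3 values was not tested.

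Hif1a encodes HIF-1 alpha, whose protein level is set mainly by oxygen-dependent decay, which RNA does not show. Probe set 1427418_a_at read 1501, 1455 and 1478 in wild-type and 2893, 2871 and 2411 in knock-in, a ratio of 1.84 and a log2 difference of 0.87 ± 0.09. The wild-type arrays were nearly equal and all below the knock-in arrays, of which knock-in 3 was the lowest. Probe set 1448183_a_at read 288, 223 and 234 against 514, 489 and 349.6 (0.81 ± 0.16), and 1416035_at read 304, 307 and 370.1 against 479.9, 505 and 404 (0.48 ± 0.12). On each of the 3, knock-in 3 was again the lowest knock-in array. The fourth, 1431981_at, was dim, at 26.6, 15.9 and 30.7 against 37.1, 21.0 and 20.7, and overlapped. With the mean over all probe sets the difference was 0.56.

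Of 16 tested genes of oxygen sensing and HIF partners, 3 rose, 1 fell and 12 did not pass, with a median of 0.07. The shares, 18.8% higher and 6.25% lower, are near and below the 14.8% and 16.3% of all genes tested. Egln3, an oxygen-dependent prolyl hydroxylase that HIF itself induces, rose from 361, 361 and 363 to 606, 629 and 662 (0.78 ± 0.08, adjusted p = 3.49e-04), while its other probe set gave 0.07 and the mean over both was 0.42. Epas1, the HIF-2 alpha subunit abundant in endothelium, rose from 839, 1127 and 947 to 1651, 1704 and 1716 (0.80 ± 0.11, adjusted p = 0.00128). The part of endothelial cells in the Epas1 value was not tested. Egln2 rose by 0.36 ± 0.10 (adjusted p = 0.0227), but missed the threshold with wild-type array 3 or knock-in array 1 or 3 left out, with p from 0.0114 to 0.0849 across 18 alternatives. Hif1an, the asparaginyl hydroxylase that restrains HIF activity, fell from 199, 217 and 215 to 160.4, 145 and 134 (-0.48 ± 0.11, adjusted p = 0.0105). Egln1, the main prolyl hydroxylase of HIF-1 alpha, the partner Arnt and the ubiquitin ligase subunit Vhl had differences of -0.26 ± 0.10, 0.23 ± 0.14 and 0.17 ± 0.13 that did not pass (adjusted p = 0.0727, 0.238 and 0.355). The tested probe sets of Egln1 ranged from -0.26 to 0.25 and those of Arnt from -0.32 to 0.23, so neither gene has a settled sign.

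Among 32 other genes known as HIF targets, 12 rose, 2 fell and 18 did not pass (37.5% higher and 6.25% lower, against 14.8% and 16.3% of all genes tested). Their median log2 difference was 0.40, beside -0.02 over all genes tested. The list was chosen with earlier results of these data known, so the shares are a description. Angptl4, a secreted inhibitor of lipoprotein lipase, rose from 546, 443 and 445 to 1410.4, 1365 and 1509 (1.55 ± 0.10, adjusted p = 3.51e-05). Cxcr4, a chemokine receptor of leukocytes and endothelium, rose from 68.2, 79.3 and 71.2 to 238, 206 and 238 (1.45 ± 0.11, adjusted p = 7.48e-05). Both separated the groups with little spread inside each. Ddit4, an inhibitor of mTORC1 under stress, rose by 1.18 ± 0.11 (adjusted p = 1.80e-04). The mitochondrial genes Fam162a and Bnip3 rose by 1.49 ± 0.13 and 0.89 ± 0.16 (adjusted p = 1.30e-04 and 0.00437), although the other probe set of Fam162a gave 0.15 and the mean over both 0.82. Car9, the carbonic anhydrase widely used as a marker of hypoxia, was below the filter, at 23.3, 30.3 and 27.7 in wild-type and 30.9, 40.5 and 30.1 in knock-in. The 2 that fell, named after their values were seen, were Tfrc, the transferrin receptor (-0.62), and the demethylase Kdm4c (-0.60). The number that fell was 0 with wild-type array 3 left out and 1 with wild-type array 1, knock-in array 1 or knock-in array 3 left out. Lox, a collagen cross-linking enzyme of fibroblasts, and Hmox1, a haem-degrading enzyme of macrophages, were also among those that rose and were named after their values were seen (1.43 and 1.44). They read 2585, 1564 and 2478 and 1588, 811 and 1553 on the knock-in arrays. Knock-in 2 was the lowest in both, as for the sums of macrophage and of neutrophil markers. In wild-type, array 2 had the highest macrophage sum and the highest Lox signal (615, 972 and 817). The same array had the lowest Hmox1 signal (473, 408 and 486). The part of macrophages or neutrophils in these values was not tested. Of 7 fibroblast markers, 1 was higher and 1 lower, with summed signals between 37827 and 48645 in wild-type and between 39723 and 45312 in knock-in.

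**Figure D4:**
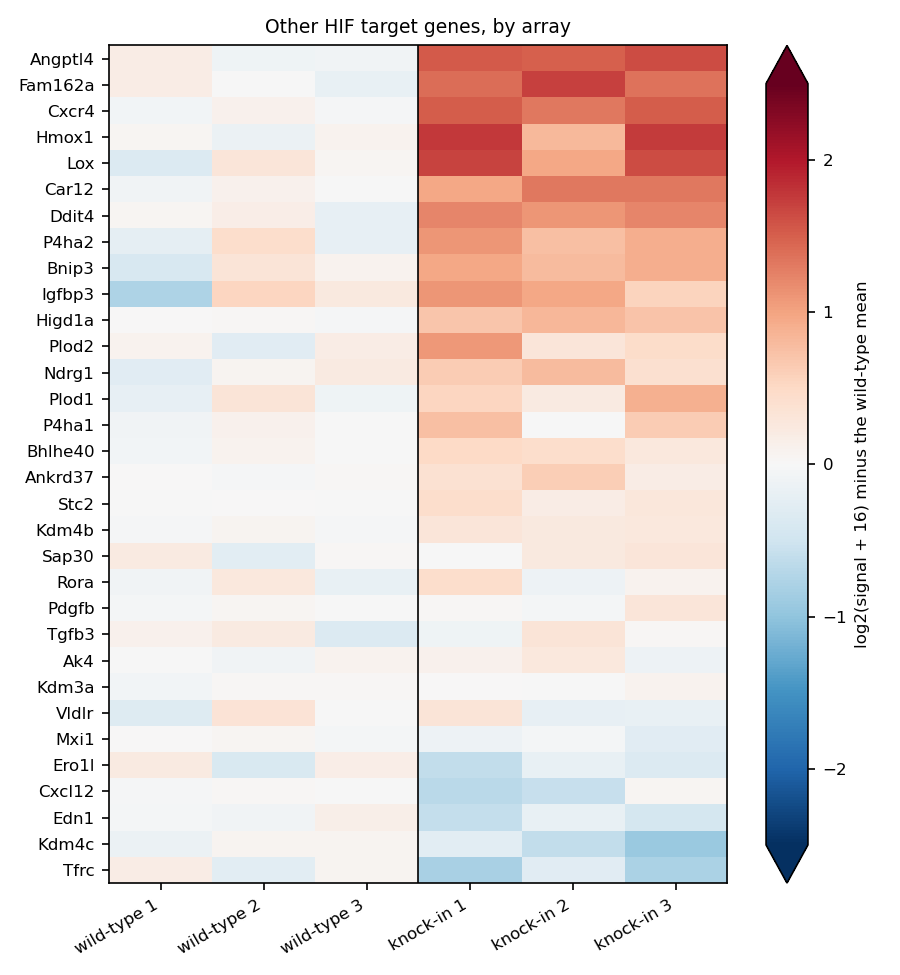
Log2(signal + 16) of the 32 tested other HIF target genes on each array, minus the gene's wild-type mean, ordered by difference. From Angptl4 down to Higd1a all 3 knock-in arrays are above the wild-type mean, and the lowest rows hold Kdm4c and Tfrc.

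Set in order with 1 probe set per gene, the differences of the 10 genes ran from Slc2a1 (2.33) through Slc2a3 (2.11), Adm (1.52), Hif1a (0.87), Pgk1 (0.66), Vegfa (0.65), Hk2 (0.53), Ldha (0.44) and Pfkfb3 (0.21) to Slc2a4 (0.05). Slc2a1 and Slc2a3 lay within a standard error of each other's bounds, and so did each neighbouring pair from Pgk1 down to Slc2a4, so the order inside those runs is not resolved. Slc2a3, Adm and Hif1a were each separated from the next gene by more than their standard errors, but only with the brightest probe set per gene. With the mean over probe sets Slc2a1 (2.48) was followed by Adm (1.26), Slc2a3 (1.04), Pgk1 (0.96), Vegfa (0.82), Hif1a (0.56), Hk2 (0.53), Ldha (0.44), Slc2a4 (0.14) and Pfkfb3 (0.09), so the order of Slc2a3 and Adm and the place of Hif1a depend on the probe sets used. Quantile normalization and median centring left the sign of every tested probe set of these genes as it was.

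**Figure D5:**
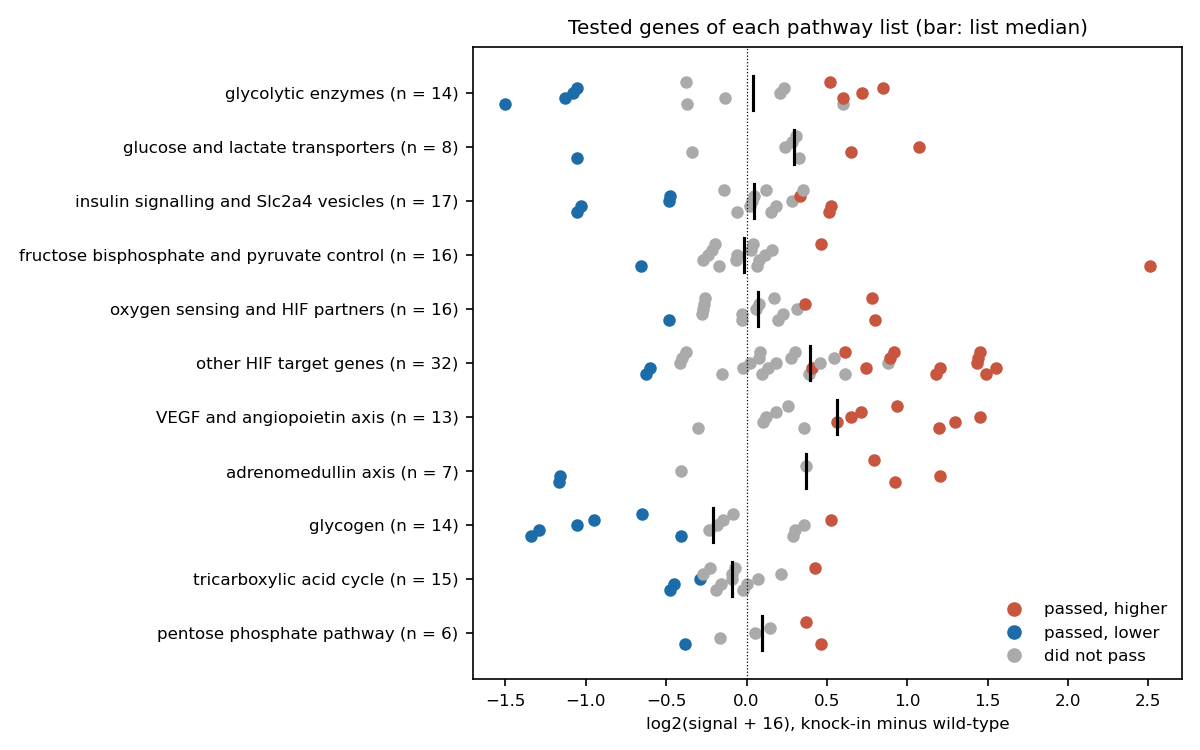
Log2 difference, knock-in minus wild-type, of every tested gene of the 11 pathway lists, 1 probe set per gene; red and blue points passed the threshold (limma, adjusted p under 0.05) and the black bar is the list median. The medians run from -0.21 for glycogen to 0.56 for the VEGF and angiopoietin list.

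Markers of the remaining cell types are given here as measured. The wound keratins Krt6a, Krt6b, Krt16 and Krt17 summed between 8332 and 10269 in wild-type and between 22299.8 and 30672 in knock-in, with 3 higher and 1 lower. Hair matrix and shaft markers summed between 48425 and 59698 in wild-type and between 17448 and 30087 in knock-in, with all 13 tested lower. Of 6 suprabasal markers 2 were lower and 0 higher, of 4 sebocyte markers 1 was higher and 0 lower, and of 3 red cell precursor markers 1 was higher and 2 lower. The higher one, Alas2, passed the filter through the knock-in arrays alone. Markers of wound keratinocytes, hair, vessels and leukocytes thus differed between the groups on the same arrays as the 10 genes, and their part in those values was not tested.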

How the data were processed

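Skin RNA of 6 samples, 3 per genotype, was measured on Affymetrix arrays. The deposited intensity of each probe set is a MAS5 signal on a linear scale, per the submitters' processing notes; the MAS5 version is not given in the sources used here, and the signals had a trimmed mean near 150 on every array (2% trimmed at each end). From these, log2(signal + 16) was fitted with limma 3.58.1 in R 4.3.3 (lmFit and eBayes with trend, two-sided), without further normalization, on all probe sets above the array median on at least 3 arrays. Benjamini-Hochberg adjusted p under 0.05 was the threshold. Of 45037 probe sets that are not array controls, 34945 have 1 gene symbol in the platform annotation, 932 several and 9160 none; only the first kind was named. A gene was represented by its probe set with the highest mean log2 value, which left 11670 genes tested and 6523 below the filter. Arrays give no read depth, and 3 per group limits the precision. The genes named are all 24 probe sets of the 10 genes, from each pathway list the 4 genes with the smallest unadjusted p, and a fixed set of enzymes, transporters, HIF regulators, HIF targets and receptors; others are marked as named after their values were seen. The 10 genes, the pathway and marker lists were chosen with earlier results of these data known. Promoter windows came from RefSeq. The alternatives were other offsets (1 and 64), filters, normalization, array weights and eBayes settings, the mean over a gene's probe sets, probe sets without shared suffixes, a replicate block, and each array left out.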

Additional observations from a re-analysis of the deposited data

How the results depend on the processing

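No value of the 10 genes or of the named pathway genes turned its direction past the threshold under any alternative run. The number of genes called, 3625 in all, ranged from 2369 to 3353 with 1 array left out, lowest without wild-type replicate 3. Genes called higher ranged from 1154 to 1609 and lower from 1215 to 1744, and probe sets from 4417 to 6568. The total over the pathway lists, 65, ranged from 49 to 67. Replicate numbers in the labels did not pair the arrays, since deviations of same-numbered arrays correlated at -0.25, -0.41 and -0.01 and 0 of 6 arrays correlated best with their own number. With a replicate block, 2439 genes were called (1258 lower), 50 calls fell in the pathway lists, and the call held for 7 of the 10 genes, as Ldha missed the threshold. Without probe sets of the shared suffixes the number was also 7, as the other probe sets of Slc2a3 are dim. Of the named genes and the 10 genes in the gene-level fit, 1090 results kept direction and side of the threshold, 41 lost it, 8 gained it and 4 changed sign, these being Slc2a4 and Pdk1, neither of which passed the threshold. Dim probe sets limit what can be said of Slc16a3, Car9 and 4 of the 24 probe sets, and the signals of dim probe sets depend on the offset.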

Other observations

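The pathways that branch from or follow glycolysis were measured too. Of 14 tested genes of glycogen metabolism, 1 rose, 6 fell and 7 did not pass (7.14% and 42.9%, against 14.8% higher and 16.3% lower of all genes tested), with a median log2 difference of -0.21, beside -0.02 over all genes tested. Pygm, the glycogen phosphorylase of muscle, fell from 645, 1302 and 912 in wild-type to 469.8, 319 and 289 in knock-in (-1.34 ± 0.25, limma, Benjamini-Hochberg adjusted p = 0.0049). The phosphorylase kinase subunits Phkb and Phkg1 had differences of -1.06 ± 0.12 and -1.29 ± 0.22 (adjusted p = 3.78e-04 and 0.00335, the latter -0.79 with an offset of 64), and the brain phosphorylase Pygb one of -0.65 ± 0.10 (adjusted p = 0.00236). Pygl, the liver phosphorylase, was the gene that rose (0.53), named after its value was seen, and it did not pass with wild-type array 1 or 3 or knock-in array 1 or 3 left out. Of the 13 skeletal muscle markers 0 were higher and 7 lower, with summed signals between 52428 and 79501 in wild-type and between 31756 and 54667 in knock-in, and their part in the values of Pygm and Phkg1 was not tested.

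Of 15 tricarboxylic acid cycle genes, 1 rose, 3 fell and 11 did not pass, with a median of -0.09. The shares, 6.67% higher and 20.0% lower, are below and near those of all genes tested. Fumarase Fh1 fell from 1103, 1178 and 1101 to 816, 823 and 780.0 (-0.48 ± 0.08, adjusted p = 0.00297) and the succinyl-CoA ligase subunit Sucla2 had a difference of -0.45 ± 0.08 (adjusted p = 0.00322), or -0.29 as the mean over its probe sets. Citrate synthase Cs had one of -0.29 ± 0.08 (adjusted p = 0.0218), which missed the threshold with wild-type array 2 or 3 or knock-in array 2 or 3 left out, with p from 0.00808 to 0.0958 across 18 alternatives. Sdhd rose by 0.43 ± 0.10 (adjusted p = 0.0104), but its mean over probe sets gave 0.06 (adjusted p = 0.645, with p from 0.00477 to 0.645 across 18 alternatives). Of 6 pentose phosphate genes, Pgd and Tkt rose (0.46 ± 0.12 and 0.37 ± 0.10, adjusted p = 0.0191 and 0.0263). Taldo1 fell (-0.38 ± 0.12, adjusted p = 0.0424), and 3 did not pass, among them Rpia (-0.17). The shares were 33.3% higher and 16.7% lower, against 14.8% and 16.3% of all genes tested. Tkt gave 0.17 as the mean over its probe sets (adjusted p = 0.245) and 0.20 without shared probe sets (adjusted p = 0.315, the highest over its alternatives, with 0.0157 the lowest). With wild-type array 3 or knock-in array 3 left out none of Pgd, Tkt and Taldo1 passed, with adjusted p between 0.0553 and 0.103. The number that rose was 1 with wild-type array 1 or knock-in array 2 left out, and Taldo1 also missed the threshold with wild-type array 1 or 2 or knock-in array 2 left out.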
